A study of Rattus norvegicus with 38 samples.

Results

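Of the 3417 differentially methylated regions (DMRs) measured in rat buccal swabs, 255 (7.46%) were more methylated on postnatal day 10 (P10) than on P2 in at least 16 of 19 pups. These DMRs, called the rising DMRs here, were chosen by the P2 and P10 percentages of the same pups, so their increase with age is given as a description and was not tested. A further 507 DMRs (14.8%) were lower at P10 in at least 16 pups. The samples were 38 swabs of Sprague Dawley rats from 2 cohorts that differed in their dates: 6 control and 5 LBN pups in cohort 1, and 4 control and 4 LBN pups in cohort 2. LBN pups lived from P2 to P9 in cages with limited bedding and nesting material, and controls in standard bedded cages. Dams reared litters made up at random from pups of different mothers, and every P2 swab preceded that step. A buccal swab holds epithelial cells and white blood cells, so a change in the share of a cell type and a change of methylation within a cell cannot be told apart. The values are methylation levels, the percent of reads that were methylated over the CpGs of a DMR. The reads behind a level are not in the files used here, so the depth is unknown and no interval was computed for a single level. All DMRs had been selected by the authors as differing between P2 and P10 in at least some of these pups.

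In mammals, DNA methylation is placed mostly on the cytosine of a CG pair by DNA methyltransferases, is copied when cells divide, and is low at most active promoters. It is laid down and removed during development, and cell types differ in where they carry it. Reduced representation bisulfite sequencing (RRBS) reads the fragments left by the enzyme MspI, which cuts at CCGG, and therefore covers CG-rich DNA. Gene names were given for 52 of the rising DMRs, in 49 genes, by supplementary tables of the study that pair positions with genes. The tables list 594 DMRs that the authors selected on these samples, and the named rising DMRs started lower than the others: their median P2 level was 17.9%, against 45.2% in the 203 without a gene. Of the 52, 19 lay in exons, 19 in introns, 8 between genes, 3 at promoters and 3 at transcription ends. Among all 458 DMRs with a gene these numbers were 93, 202, 113, 28 and 22.

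The 3 promoter DMRs belonged to Mfap2, Nrp1 and Hes7. Mfap2 encodes a glycoprotein of elastic microfibrils, Nrp1 a receptor for semaphorins and vascular endothelial growth factor, and Hes7 a transcriptional repressor of the segmentation clock. The RefSeq promoters of Mfap2 and Nrp1 are shown because their DMRs lie where the authors' annotation places a promoter, and so that the density of CG pairs, the units whose methylation was read, can be seen. Each is 300 bases of the GRCr8 build on the plus strand, with every CG in capitals. The DMRs have coordinates of the rn6 build and could not be placed within these windows.
Mfap2, chr5:158597478-158597777: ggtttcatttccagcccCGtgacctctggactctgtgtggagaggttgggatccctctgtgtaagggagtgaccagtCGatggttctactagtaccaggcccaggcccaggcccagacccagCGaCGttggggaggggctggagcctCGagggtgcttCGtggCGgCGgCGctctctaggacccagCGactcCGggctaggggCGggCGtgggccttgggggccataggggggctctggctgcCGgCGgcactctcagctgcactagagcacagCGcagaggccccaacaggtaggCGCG
Nrp1, chr19:73256307-73256606: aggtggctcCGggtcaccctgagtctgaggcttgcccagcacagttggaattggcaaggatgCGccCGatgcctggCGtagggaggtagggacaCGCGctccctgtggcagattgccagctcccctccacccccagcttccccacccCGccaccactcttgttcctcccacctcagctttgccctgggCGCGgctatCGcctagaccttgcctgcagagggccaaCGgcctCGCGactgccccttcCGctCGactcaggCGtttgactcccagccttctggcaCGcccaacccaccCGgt
Each window held 18 CGs, against a median of 7 in the 33469 promoters of the same length, and 2 CCGG sites, a motif present in 51.4% of those promoters. At least 18 CGs were held by 27.5% of those promoters. Hes7 has 2 annotated starts in the table and is not shown.

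Over the 255 rising DMRs, the mean level per pup was 39.1% ± 3.46 (SD, n = 19) at P2 and 51.7% ± 2.75 at P10. The mean rise was 12.6 ± 4.54 percentage points and ranged from 4.40 to 19.5 among the pups. Over all 3417 DMRs the mean level went from 50.5% at P2 to 47.6% at P10. The pups contributed unequally to the exceptions: of 4845 pairs of values, 471 were not higher at P10, and cohort 2 LBN 11 held 74 of these and cohort 1 control 9 held 71, whereas cohort 1 control 12 held 3.

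**Figure D1:**
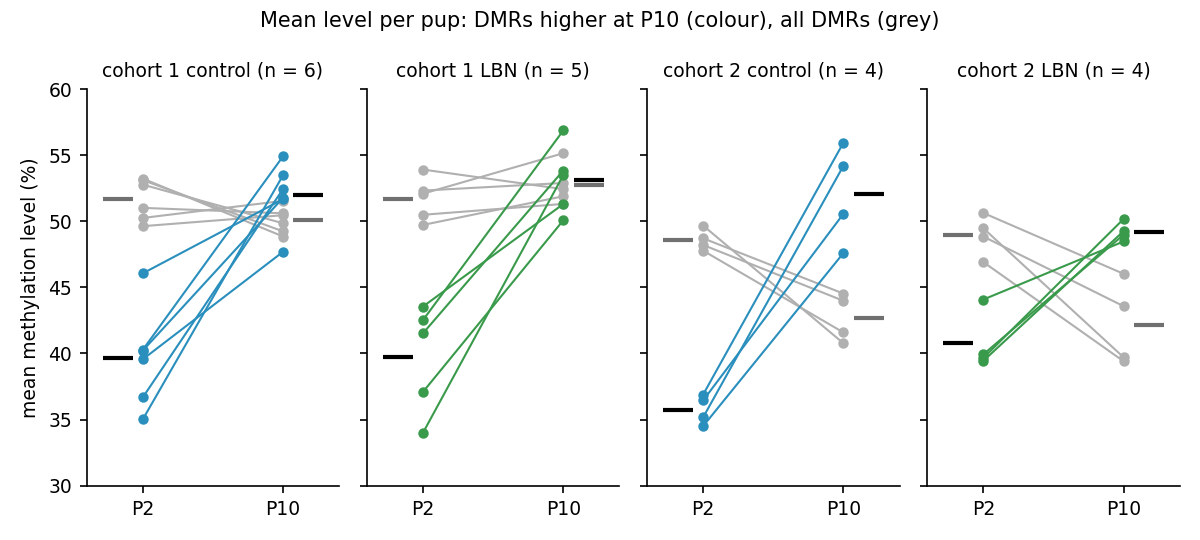
Mean methylation level (percent) of each pup at P2 and P10 over the 255 rising DMRs (colour) and over all 3417 DMRs (grey), by cohort and experience, where each line is a pup and the short bars are group means. The mean over the rising DMRs went up in every pup, by 4.40 to 19.5 percentage points, and the 4 cohort 2 LBN pups started above the 4 cohort 2 controls.

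By the number of pups with a higher level at P10, 92 of the rising DMRs had 16 pups, 65 had 17, 65 had 18 and 33 had all 19. Just inside the limit, the DMRs with 16 pups had a median P2 level of 38.4% and a median rise of 11.3 percentage points, from 1.99 to 20.2. Just outside it, the 113 DMRs with 15 pups had a median P2 level of 43.5% and a median rise of 9.75, from 2.17 to 17.5. The values on the 2 sides of the limit overlapped over most of their range.

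The increases were largest at an intronic DMR of Bcl3, which encodes a nuclear regulator of NF-kB (chr1:80731734-80731753, rn6). Its level over the 19 pups had a lowest value of 20.1%, a median of 29.3% and a highest value of 37.6% at P2, and 42.9%, 57.5% and 81.4% at P10. No P10 level was as low as the highest P2 level, a separation seen in 4 of the rising DMRs. A DMR separated in this way rises in every pup, so the rule places any such DMR among the rising ones. A second Bcl3 DMR, in an exon 1929 bp away, rose from a mean of 12.1% to 28.1%, also in 19 of 19 pups.

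Among the other 9 DMRs with the largest mean rise, 3 had a gene. The exonic DMR of Nfic, a CCAAT-binding transcription factor, went from 34.9% ± 11.1 to 56.0% ± 14.4 (SD, n = 19), and was higher in 17 pups. The exonic DMR of Rps6ka4, a kinase activated by MAP kinases that acts on histone H3, went from 30.1% ± 10.3 to 51.0% ± 8.65, and was higher in 19. An exonic DMR of Mn1, a transcriptional coregulator that is rearranged in leukaemia, went from 46.0% ± 8.91 to 66.5% ± 9.60, and was higher in 18. At each of these the P2 and P10 ranges overlapped.

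The 6 without a gene started between 35.01% and 56.5% on average. The largest was at chr10:109867637-109867648, which went from 47.8% ± 15.4 to 72.0% ± 8.69. It was followed by chr15:108041376-108041377 (48.5% to 71.0%), chr2:184678532-184678533 (56.5% to 78.5%) and chr1:222674238-222674303 (55.8% to 77.8%). The DMRs at chr7:140473260-140473261 and chr11:83455264-83455265 went from 45% to 65.7% and from 35.01% to 55.7%, each in 19 of 19 pups.

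**Figure D2:**
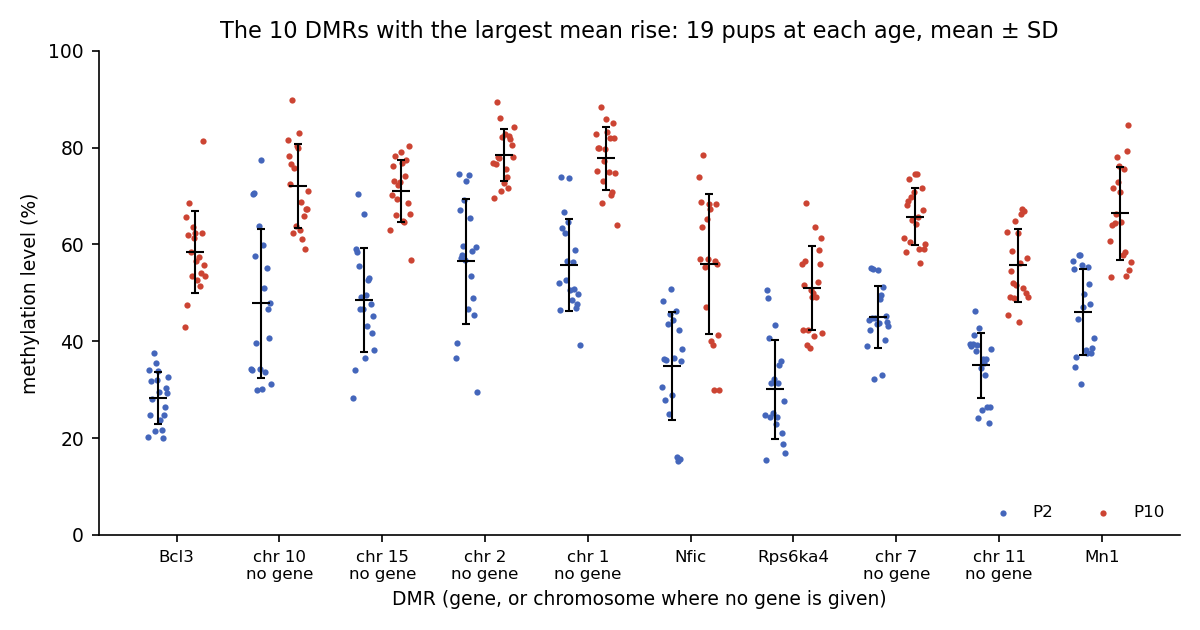
Methylation level (percent) at P2 (blue) and P10 (red) in each of 19 pups at the 10 DMRs with the largest mean rise, with the mean and SD in black. At Bcl3 every P10 point lies above every P2 point, from 42.9% upwards against 37.6% downwards, and at Nfic the points of both ages overlap.

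Relative to the starting level, the largest change in all 19 pups was at an exonic DMR of Gdnf, which encodes a neurotrophic factor needed by kidney and enteric nerve development (chr2:56892567-56892568). Its level had a lowest, median and highest value of 5.88%, 9.68% and 22.2% at P2 and 11.8%, 27.9% and 54.5% at P10, so the ages overlapped between pups although each pup rose. The other Gdnf DMRs were not among the rising ones: an intronic DMR went from 24.98% to 37.4% and was higher in 15 pups, and one between genes went from 48.1% to 36.1% and was higher in 5. The Mfap2 promoter DMR (chr5:159534225-159534289) went from 12.6% ± 3.35 to 28.7% ± 6.42, and its lowest P10 level, 17.7%, was below its highest P2 level, 19.7%. An intronic DMR of Bahcc1, whose product holds a chromatin-binding BAH domain, went from 33.7% to 53.8%. Among DMRs without a gene, chr7:124427301-124427336 went from 14.97% ± 4.77 to 27.1% ± 5.95 and chr20:7021282-7021344 from 21.3% ± 3.99 to 38.9% ± 7.09, each in 19 of 19 pups.

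At the other promoters, the Hes7 DMR (chr10:55707076-55707077) went from 32.1% to 48.7% and rose in 19 of 19 pups. The Nrp1 DMR (chr19:61332069-61332070) went from 20.2% to 36.3% and rose in 16. The SD of the Nrp1 rise over pups, 16.4 percentage points, was as large as its mean rise of 16.2.

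Most of the rising DMRs were a single CpG position, but long DMRs were more frequent among them than among all DMRs. A single position made up 170 of 255 (66.7%), against 73.5% of all DMRs, and 25 (9.80%) spanned 50 bp or more, against 3.45% of all. Read the other way, rising DMRs were 6.77% of the single positions, 7.60% of the DMRs of 2 to 49 bp and 21.2% (25 of 118) of those of 50 bp or more. The median SD of the rise over pups was 10.3 percentage points for single positions and 7.98 for the longest class, while the median rise was 12.5 and 12.4. Of the 33 DMRs that rose in all 19 pups, 36.4% were single positions. The rule counts pups, so a DMR with less spread between pups can meet it at a smaller mean rise. Whether this bears on the share of long DMRs was not tested. Among the DMRs lower at P10 in at least 16 pups, 3.16% spanned 50 bp or more. The longest rising DMR, at chr3:8407917-8408112 (195 bp, no gene given), went from 55.2% ± 6.76 to 74.5% ± 3.39 in 19 of 19 pups.

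Low starting levels were more frequent among the rising DMRs than among all DMRs. Rising DMRs were 29.0% (20 of 69) of the DMRs with a mean P2 level under 10%, 16.7% (59 of 353) of those from 10% to 25%, 7.52% (70 of 931) from 25% to 45%, 6.81% (59 of 867) from 45% to 60%, 4.53% (36 of 794) from 60% to 75% and 2.73% (11 of 403) above that. The share fell in each step. The rule itself uses the P2 level, and a level near 0% has little room to fall, so these shares are a description. The median rise was smallest at both ends, at 5.60 percentage points under 10% and 8.70 from 75%, and was between 11 and 14.1 in the classes between. The share of DMRs lower at P10 in most pups was 0% in the lowest class, 11.05% from 10% to 25%, 9.77% from 25% to 45%, and 23.3% (94 of 403) in the highest class.

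**Figure D3:**
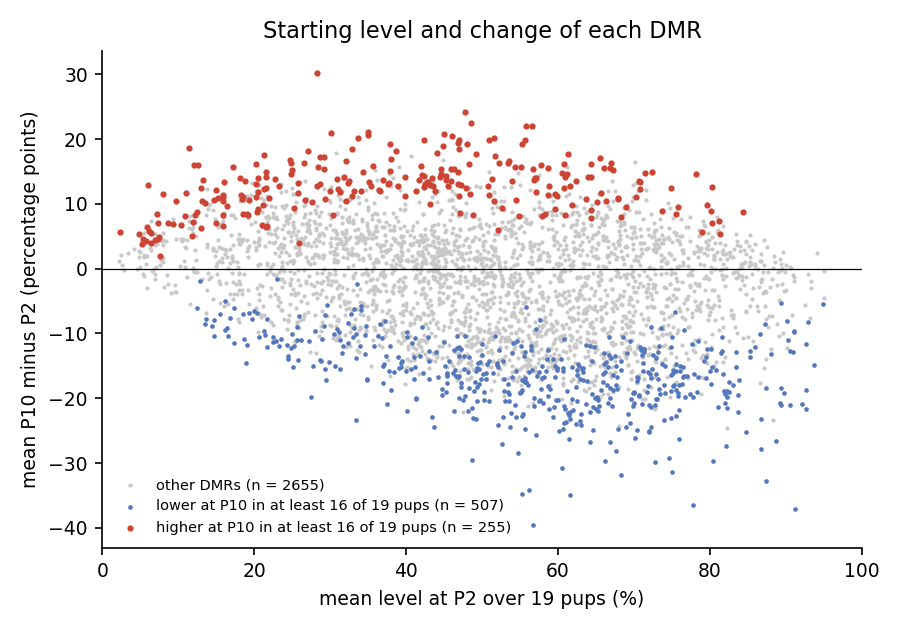
Mean P2 level (percent) of each DMR against its mean change from P2 to P10 (percentage points) over 19 pups, for the 255 rising DMRs (red), the 507 lower at P10 in at least 16 pups (blue) and the other DMRs (grey). The red points reach from 2.38% to 84.4% at P2, and 20 of the 69 DMRs under 10% are red while 0 are blue.

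DMRs near a rising DMR mostly went up too. Another DMR lay within 1 kb of 34 rising DMRs (13.3%, against 5.94% of all DMRs), and that nearest DMR had a higher mean at P10 in 33 of 34 cases, against 61.1% of all DMRs with a neighbour at that distance. It was itself a rising DMR in 17 of 34 (50%), against 9.47% (16 of 169) for the remaining DMRs, and was never one of those lower in most pups. The share fell to 29.0% (9 of 31) from 1 to 10 kb, 14.7% (17 of 116) from 10 to 100 kb and 9.46% (7 of 74) beyond. DMRs that are each other's nearest are counted from both sides, and neighbours share fragments of the same libraries, so these shares are a description.

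**Figure D4:**
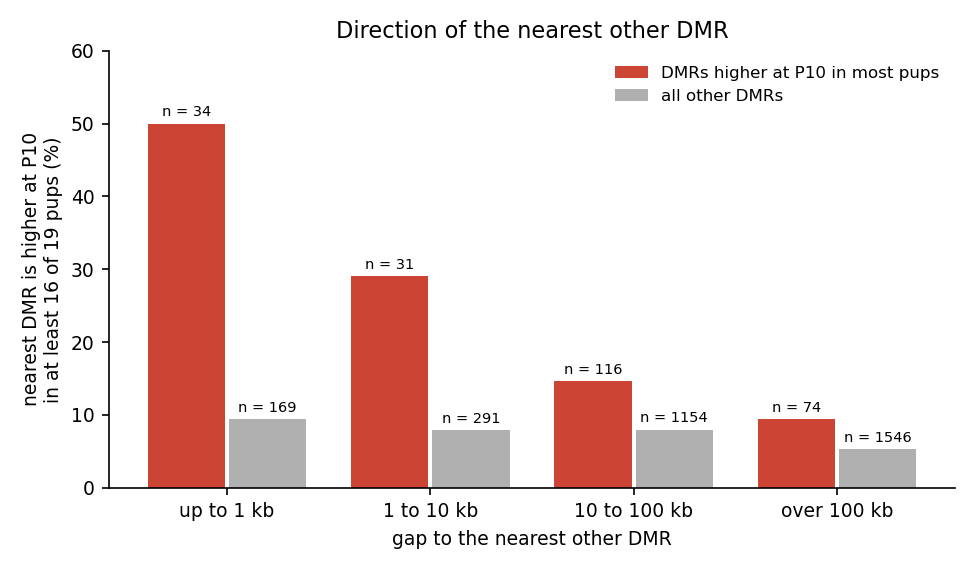
Share (percent) of DMRs whose nearest other DMR was higher at P10 in at least 16 of 19 pups, by the gap to it, for rising DMRs (red) and all other DMRs (grey), with the number of DMRs above each bar. The red bars fall from 50% within 1 kb to 9.46% beyond 100 kb, and the grey bars lie between 5.30% and 9.47%.

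In 2 places 3 rising DMRs lay within 10 kb of each other. On chromosome 20, exonic and intronic DMRs of Tnxb, which encodes an extracellular matrix tenascin, went from 12.9% to 25.4% (chr20:4437375-4437555) and from 20.5% to 32.3% (chr20:4445087-4445088), and a DMR without a gene between them went from 34.0% to 46.0% (chr20:4437881-4438047). Each rose in 16 pups. A further exonic Tnxb DMR stayed near its level, at 20.7% and 21.4%, and was higher in 9 pups. On chromosome 7, an exonic DMR of C2cd4c (chr7:12976081-12976099) went from 20.2% to 31.2%, and its neighbours at chr7:12975889-12975905 and chr7:12975613-12975614 went from 18.1% to 32.1% and from 45.9% to 59.5%.

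The lists of genes gave these counts, beside 11.4% (52 of 458) for all DMRs with a gene, of which 192 had a higher mean at P10 and whose median change was −3.10 percentage points. Of 22 DMRs at developmental transcription factors other than homeobox genes, 6 were rising and 0 were lower at P10 in most pups: Nfic, Tfap2c (8.0% to 19.4%), Snai1, a repressor of epithelial adhesion genes (25.2% to 34.5%), Hand1 (15.9% to 24.2%), and the T-box factors Tbx3 (9.32% to 16.3%) and Tbx2 (6.404% to 10.3%). The other Tbx3 DMRs were not rising and were higher in 13, 8 and 11 pups. A further Tbx2 DMR stayed near its level, at 24.7% and 24.4%, and was higher in 8. At the rising Tbx2 DMR the SD of the rise over pups, 6.85 percentage points, exceeded the mean rise of 3.90. Of 19 DMRs at growth factor and Wnt signalling genes, 5 were rising: Gdnf, Nrp1, the Wnt receptors Fzd7 (24.99% to 40.2%) and Fzd2 (7.29% to 14.4%), and Fgf4 (7.39% to 12.3%). In the same list 1, at Tgfbr3, was lower in most pups. The mean was higher at P10 at 17 of the 22 and 12 of the 19 DMRs, with a median change of 3.02 and 4.31 percentage points. Apart from Nfic and Snai1, the rising DMRs of these lists started below 25%, where rising DMRs were more frequent among all DMRs.

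Homeobox genes held 23 DMRs, of which 1, at Hoxb5, was rising (7.23% to 15.7%), although 16 of the 23 had a higher mean at P10 (median change 2.81 percentage points). Among 8 DMRs at leukocyte identity genes, 1 was rising, at Jak3, a kinase of cytokine receptors (43.8% to 55.8%), and 2 were lower in most pups, at Traf1 and Tnfrsf1b. The SD of the Jak3 rise over pups, 19.7 percentage points, exceeded the mean rise of 12.0. The DMR nearest to that of Jak3, 7116 bp away, was lower at P10 in most pups (mean change −22.7 percentage points). The mean was higher at P10 at 3 of the 8, with a median change of −10.8 percentage points. Among 5 at epithelial identity genes, 1 was rising, at Epcam, an epithelial adhesion molecule (6.89% to 11.3%), and the mean was higher at P10 at 2 of the 5, with a median change of −2.03. These DMRs do not measure the share of either cell type.

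The question of the study was whether experience between P2 and P10 altered methylation within a pup. For the rising DMRs, the mean rise per pup was 13.9 ± 4.54 percentage points in controls (n = 10) and 11.2 ± 4.30 in LBNs (n = 9), and the groups overlapped. In cohort 1 the rise was 12.4 ± 4.86 in controls (n = 6), from 5.62 to 18.5, and in LBNs (n = 5) it was 7.75, 12.3, 13.0, 14.3 and 19.5. In cohort 2 it was 13.1, 14.1, 19.03 and 19.06 in the 4 controls and 4.40, 9.05, 9.81 and 10.5 in the 4 LBNs. The groups overlapped in cohort 1 and did not overlap in cohort 2.

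The cohort 2 groups already stood apart at P2, before the pups were assigned. The mean P2 level over the rising DMRs was 34.5%, 35.2%, 36.4% and 36.9% in the controls and 39.4%, 39.7%, 39.9% and 44.1% in the pups that later became LBNs. At P10 the controls lay at 47.6%, 50.6%, 54.2% and 55.9% and the LBNs at 48.5%, 48.98%, 49.2% and 50.2%, and the groups overlapped. On the scale of log2(percent + 1), the mean difference of LBNs from controls was 0.24 at P2, −0.08 at P10 and −0.33 in the change, and 223 of 255 rising DMRs (87.5%, against 58.8% of all DMRs) changed less in LBNs. In cohort 1 the 3 differences were 0.00, 0.01 and 0.01. The change subtracts the P2 level, so the difference at P2 and that in the change are not separate measurements.

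**Figure D5:**
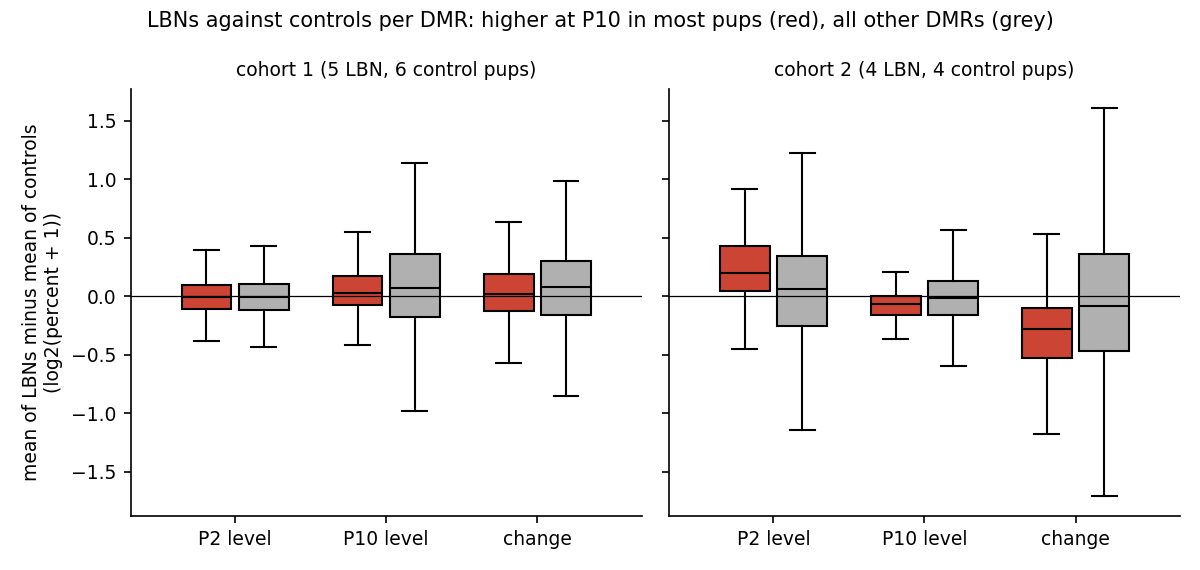
Difference of the LBN mean from the control mean for each DMR in cohort 1 (left) and cohort 2 (right), in units of log2(percent + 1), at P2, at P10 and in the change, for rising DMRs (red) and all other DMRs (grey). Boxes span the quartiles with the median as a line, whiskers reach 1.5 times the box height at most, and single DMRs beyond them are not drawn; the median of the red boxes in cohort 2 is 0.20 at P2, −0.07 at P10 and −0.28 in the change.

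Counted DMR by DMR in cohort 2, all 4 LBNs changed less than all 4 controls at 53 rising DMRs (20.8%, against 6.38% of all DMRs), and the opposite held at 2 (against 6.88% of all). At P2 all 4 future LBNs were above all 4 controls at 48 (18.8%, against 10.7% of all). At P10 the LBNs were above at 0 (against 0.498% of all) and below at 5 (against 0.615%). The groups stood apart at more rising DMRs at P2 and in the change than at P10, and the same held over all DMRs. At P2 the future LBNs were below all controls at 7 (against 13.3% of all). In cohort 1 all LBNs were above all controls at 0 rising DMRs at P2 (against 0.0293% of all), 4 at P10 (against 2.72%) and 1 in the change (against 0.322%), and below them at 1 (against 0.117%), 6 (against 2.08%) and 2 (against 0.234%). For the DMRs lower at P10 in most pups the cohort 2 groups differed at P2 in the other direction, with means of 59.1% in controls and 51.2% in future LBNs.

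Tested DMR by DMR with limma across all 3417 DMRs and with cohort as a covariate, no difference between LBNs and controls in the change passed at a rising DMR after Benjamini-Hochberg adjustment (0 of 255, against 0% of all DMRs). At an unadjusted p under 0.05 there were 9 rising DMRs (3.53%), against 112 of all DMRs (3.28%). Each of the 9 had a smaller change in LBNs. The rule allows at most 3 pups without a rise, which limits how far the change could differ between groups. The smallest p was at the exonic Fzd2 DMR (chr10:90551877-90551939), with a difference in the log2 change of −0.92 (SE 0.26, adjusted p = 0.9998). It was followed by Pebp4, a lipid-binding protein gene (−0.65, SE 0.21), the unnamed locus AABR07044492.1 (−0.94, SE 0.38), Tbx3 (−0.67, SE 0.28) and the Mfap2 promoter (−0.44, SE 0.19). In each cohort alone 0 passed, among rising and all DMRs. An unadjusted p under 0.05 was found at 57 rising DMRs (22.4%) and 788 of all (23.1%) in cohort 2. In cohort 1 it was found at 10 (3.92%) and 201 (5.88%).

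At Fzd2 the groups were set apart at P10 in cohort 1. The 6 controls lay at 11.03%, 11.3%, 14.4%, 18.3%, 19.7% and 20.9%, and the 5 LBNs at 4.30%, 6.23%, 6.44%, 7.28% and 7.72%. In cohort 2 the controls lay at 15.3%, 17.2%, 18.8% and 26.4% and the LBNs at 12.3%, 16.6%, 18.2% and 20.9%. The groups did not overlap in cohort 1 and overlapped in cohort 2.

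At P10 no rising DMR passed the adjusted threshold over both cohorts (0 of 255, against 0% of all). An unadjusted p under 0.05 was found at 14 rising DMRs (5.49%) and 337 of all (9.86%). The smallest p was at Gdnf, with a log2 odds difference of −1.08 (SE 0.31, adjusted p = 0.482), followed by Fzd2 (−0.86, SE 0.26). The other 3 of the 5 smallest were DMRs without a gene, at chr7:118417009-118417010, chr1:13698505-13698506 and chr9:13634531-13634532. In cohort 1 alone, 9 of 255 passed (3.53%, against 12% of all DMRs), 5 lower and 4 higher in LBNs. Among the lower were Fzd2 (−1.33, SE 0.33, adjusted p = 0.0365), Gdnf (−1.40, SE 0.38, adjusted p = 0.037) and the exonic Tnxb DMR (−1.17, SE 0.38, adjusted p = 0.0464). The share was below that of all DMRs. In cohort 2 alone 0 passed, among rising and all DMRs, with 5 (1.96%) and 45 (1.32%) at an unadjusted p under 0.05.

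The Gdnf levels of cohort 1 at P10 were 27.9%, 31.2%, 31.9%, 40.3%, 41.0% and 54.2% in controls and 11.8%, 12.8%, 16.7%, 22.6% and 30.6% in LBNs. In cohort 2 they were 26.0%, 27.8%, 36.4% and 54.5% in controls and 21.5%, 22.5%, 23.4% and 38% in LBNs. The groups overlapped in both cohorts.

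At P2, where no difference of experience existed, 0 of 255 rising DMRs passed over both cohorts (against 0% of all). At an unadjusted p under 0.05 were 12 rising DMRs (4.71%) and 457 of all (13.4%). In cohort 2 alone 10 of 255 passed (3.92%), all of them higher in the future LBNs, against 4.33% of all DMRs called in that direction and 14% called in either. The 1 with a gene was the exonic Fzd7 DMR (chr9:66307647-66307648), with a log2 odds difference of 1.42 (SE 0.32, adjusted p = 0.0258). Its P2 levels were 10.2%, 10.6%, 13.8% and 18.4% in controls and 26.0%, 28.0%, 30.5% and 33.3% in future LBNs, which did not overlap. Of the 9 DMRs called at P10 in cohort 1 and the 10 called at P2 in cohort 2, 2 were the same.

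No rising DMR passed the test of a difference in the change between cohorts, while 200 of all DMRs did (5.85%), mostly lower in cohort 2. Over all DMRs the mean change was −0.394 percentage points in cohort 1 and −6.33 in cohort 2, whereas the rising DMRs went up by 12.8 and 12.4. With experience as a covariate 0 of 255 rising DMRs passed, and 11 (4.31%) had an unadjusted p under 0.05, against 721 of all (21.1%). The median cohort difference was −0.01 against −0.16 over all DMRs on the log2 scale. The rule asks for a rise in at least 16 pups, and so in at least 5 of the 8 of cohort 2, which limits this comparison. Among the smallest p were those of DMRs without a gene at chr3:164333580-164333581, chr5:165539389-165539390 and chr10:15204148-15204149 and of the Mfap2 promoter (0.46, SE 0.19). Among LBNs alone 17 of 255 passed (6.67%, against 24.6% of all). Among controls alone 0 passed, with 21 rising (8.24%) and 363 of all DMRs (10.6%) at an unadjusted p under 0.05.

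The test of whether the LBN difference in the change itself differed between cohorts passed at 0 of 255 rising DMRs (against 0.0293% of all, 1 DMR). An unadjusted p under 0.05 was found at 54 rising DMRs (21.2%) and 845 of all (24.7%). Without cohort 1 LBN 4 the test passed at 11 rising and 232 of all DMRs, and without cohort 1 control 12 at 3 and 46. At P2, 5 of 255 differed between cohorts (1.96%, against 12.6% of all), 3 of them higher in cohort 2 (against 3.34% of all) and 2 lower (against 9.31%): an intronic DMR of Rara, a retinoic acid receptor (−1.26 in cohort 2, SE 0.31, adjusted p = 0.0128), the intronic Tnxb DMR (0.95, SE 0.30, adjusted p = 0.0357), and 3 without a gene. That count was 17 without cohort 1 LBN 3 and 1 without cohort 1 LBN 9.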

How the data were processed

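RRBS libraries of buccal swabs were made by the authors, who trimmed reads with Trim Galore 0.4.3, aligned them to rn6 with Bismark 0.16.3, retained CpGs covered by over 10 reads, compared P2 with P10 in each pup with methylKit in R 3.3.2 (false discovery rate 0.05), and joined differing CpGs shared by pups of a group when they lay up to 100 bp apart. The deposited values are methylation percentages in percent, before any correction for cohort. The depth behind a value is not given, which limits the precision that can be stated. No samples were identical (the highest correlation of 2 samples was 0.932).

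P2 and P10 swabs were paired by the pup named in the labels. The change was log2((P10 + 1)/(P2 + 1)), with 1 percentage point added to keep DMRs listed at 0, and levels were tested as log2((percent + 1)/(100 − percent + 1)). Tests were two-sided, with limma 3.58.1 (lmFit, eBayes) in R 4.3.3 on all 3417 DMRs, with Benjamini-Hochberg adjustment at 0.05. The tests of experience in the change and at P10 over both cohorts were tried on simulated data, and the other tests were not. Descriptions used Python 3.11.15, numpy 2.4.6 and pandas 2.3.3, and figures matplotlib 3.10.9. Length is end minus start as deposited, and a gap is the distance between DMR edges. Sex, dam and cage were not modelled, since the labels do not tie them to pups, and p-values would be too small if pups of a group shared a dam.

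The rising DMRs and gene lists were chosen with earlier results of these data known. Named DMRs were the 10 with the largest mean rise, the 10 with the largest log2 change in 19 pups, the 5 with the smallest p for experience in the change and at P10 and for cohort in the change, those within 10000 bp of at least 2 others, list members, and the longest; DMRs called within a cohort were named after their values were seen. Alternatives were other scales and pseudocounts, a filter at a mean level of 10%, the replicate block, each cohort or group alone, and each pup left out. The rn6 sequence was not used here, and the results of 1 DMR that met the rule for naming are not reported here.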

Additional observations from a re-analysis of the deposited data

Results flagged for a closer look

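In 192 checks of a group of 4 to 6 pups, 16 had a pup far from the others by Dixon's criterion, where chance gives about 1 in 20, or 9.6. Over all rising DMRs, cohort 2 control 11 had 25 without a rise while the other cohort 2 controls had at most 10. Cohort 2 LBN 11 had a mean P2 level of 44.1%, and the next of its group had 39.9%.

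The other 14 were the rise of a single pup at a named DMR, in percentage points. In cohort 1 controls, control 4 had −16.2 at chr1:13698505-13698506 (next 15.1) and −2.46 at Hand1 (next 7.93). In cohort 1 LBNs, LBN 12 had 36.2 at chr20:7021282-7021344 (next 23.3) and −14.0 at the intronic Tnxb DMR (next 6.75), LBN 4 had 16.2 at chr3:164333580-164333581 (next 28.5) and 18.2 at Hand1 (next 4.70), and LBN 3 had 24.2 at Fzd7 (next 16.5).

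In cohort 2 controls, control 5 had 38.6 at chr15:108041376-108041377 (next 21.1) and 17.9 at Fzd2 (next 9.03), control 8 had 1.76 at Tbx2 (next 8.74), and control 11 had 9.14 at Epcam (next 2.33). In cohort 2 LBNs, LBN 4 had 32.1 at Rps6ka4 (next 16.8), 10.5 at chr7:124427301-124427336 (next 2.08) and 0.972 at chr9:13634531-13634532 (next 7.99).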

How the results depend on the processing

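Asking for 17 pups left 163 rising DMRs, and leaving out each pup in turn, with 15 of 18 asked for, gave 263 to 309. Each of the 255 meets that looser rule, so the count could not fall below 255. The mean rise over the same 255 DMRs, by subsets chosen after seeing the data, stayed between 12.3 and 13.1 percentage points without any single pup. These DMRs had been chosen with that pup included, so the range does not test the choice. Of the LBN differences in the change over both cohorts, 205 of 255 were below 0 (187 to 218 without a pup). Those above 0 made up 19.6% of the rising DMRs, against 45.9% of all. In cohort 1 alone 114 were below 0 (44.7%, against 41.6% of all). At P10, cohort 1 alone gave 9 rising and 409 of all DMRs called. At P2, cohort 2 alone gave 10 and 479, and differences below 0 numbered 132 in cohort 1 and 39 in cohort 2, against 65 over both. Those above 0 were 48.2%, 84.7% and 74.5% of the rising DMRs, against 49.8%, 59.3% and 53.7% of all. For cohort in the change, LBNs alone gave 17 and 842 called and controls alone 0 and 0, with 68 differences below 0 in controls alone against 137. Those above 0 were 73.3% of the rising DMRs in controls alone (34.8% of all) and 46.3% over all pups (29.1% of all). Over all DMRs the test of cohort in the change called 82 on the log-odds scale and 118 in percentage points, against 200. Without a pup it called 0 to 1 rising and 109 to 425 of all. The experience by cohort test called 2 and 5 of all DMRs on these scales, and 0 to 11 rising and 0 to 232 of all without a pup. Cohort at P2 called 8 rising and 396 of all DMRs on the percent scale, and 1 to 17 rising and 247 to 800 of all without a pup. The causes were not tested. At chr10:15204148-15204149 the cohort difference was −0.0291 in LBNs alone, reversed from that over all pups. The experience tests over both cohorts called 0 rising and 0 of all DMRs without any single pup.

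Where a control and an LBN of the same cohort carried the same number, the 5 pairs correlated at a mean of −0.0235 in their changes, against 0.00264 for 41 other pairs. The correlations ran from −0.663 to 0.342 and from −0.666 to 0.750, too wide for 5 pairs to show whether a number marks a shared origin. The numbers were taken as names. With the replicate block, experience in the change, at P10 and at P2 called 0 DMRs, and 3 rising and 63 of all had an unadjusted p under 0.05 in the change. The depth of a level is unknown, so another coverage minimum could not be tried.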
